A study of Mus musculus with 12 samples.

Results

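Doxycycline was used to switch off Oct4 in Phf6 knockout (KO) mouse embryonic stem cells, and the response was read from 4 of the 12 RNA-seq libraries of the series. They were chosen by their labels: 2 libraries of KO cells given doxycycline and 2 of untreated KO cells, called the control. All are ZHBTc4 cells of strain 129/Ola, whose native alleles of Pou5f1, the gene of Oct4, are disrupted. Their Oct4 is made from a transgene under doxycycline repression, so the control cells carry these changes too. The cells had been moved from mouse fibroblast feeders to gelatin after the first passages, in medium with 15% serum and 1000 units/ml of leukemia inhibitory factor (LIF). Treatment lasted 2 days, at 0.5 µg/ml of doxycycline in the sample labels and 0.5 mg/ml in their protocol text. How the knockout was made and how many KO clones were sequenced were not given in the sources used here, so the genotype and a property of 1 clone cannot be told apart. Wild type (WT) ZHBTc4 cells, with 2 control and 2 doxycycline libraries handled alike, are the comparison. The 4 retinoic acid libraries were from WT and KO cells treated for 4 days without LIF. They entered only the filter on low counts, the scaling between libraries and the estimate of spread. Nothing in the labels says that replicates were separate cultures. The p-values therefore reflect the spread among these samples alone, and that spread may be technical.

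Oct4 is a POU-domain transcription factor that, often beside Sox2, holds embryonic stem cells in the pluripotent state. Stem cells that lose it turn toward trophectoderm, the first epithelium of the embryo, whose descendants, the trophoblast, build the placenta. Cdx2, Gata3 and Eomes are transcription factors of that lineage, and Oct4 and Cdx2 repress each other. PHF6 is a chromatin-binding protein with PHD-type zinc fingers, and the title of the series links it to the activation of trophectodermal genes.

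The 4 KO libraries held 16971245 to 18711777 counts, and all 12 held 15799517 to 21441996. Mitochondrial genes took 1.32% to 1.64% of the KO counts. Over the 8 control and doxycycline libraries, principal component 1 (72.4% of the variance) separated doxycycline from control, and component 2 (12.3%) separated KO from WT. The pair of KO doxycycline libraries differed from each other more than the pair of controls, with a chi-square per degree of freedom of 5.78 against 2.39. Replicate 2 of the doxycycline pair was lower than replicate 1 by a median log2 of -0.08 over the shortest of 4 length classes of genes and higher by 0.03 over the longest. Levels below are CPM, counts scaled to a library total that TMM factors adjust, replicate 1 first. Changes are log2 values of doxycycline over control ± SE from 1 edgeR quasi-likelihood fit, called at a Benjamini-Hochberg adjusted p under 0.05 over 17884 genes, and are relative to a median of 0.00 over all of these genes.

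The targeted gene and the switched gene come before the rest. Phf6 (GRCm38, ENSMUSG00000025626.16, chromosome X, 52912266 to 52956943) stood at 4.49 and 6.50 CPM in the KO controls and 7.38 and 8.19 CPM in the KO doxycycline libraries. The WT controls had 42.8 and 40.2 CPM, so each KO library was well under each WT library. Within the KO cells the remaining Phf6 reads rose by 0.49 ± 0.15 (adjusted p = 0.00684), a call that was lost without control replicate 1 (0.26, adjusted p = 0.204) or doxycycline replicate 2 (0.42, adjusted p = 0.0533). Gene totals do not show which exons they came from. Pou5f1 (ENSMUSG00000024406.16, chromosome 17, 35506018 to 35510772) stood at 1196 and 1193 CPM in the KO controls and 13.03 and 14.3 CPM with doxycycline, a change of -6.45 ± 0.12 (adjusted p = 1.99e-13). Its level is a gene total in which transgene and native transcripts are not told apart.

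Sequences upstream of responding genes are shown to place the Oct4 motif in genes of both directions. RefSeq promoter windows (GRCm38.p6, 250 bases before to 50 after each start) were searched on both strands for the octamer ATGCAAAT and for TTGTNATGC, a core of the joint Oct4 and Sox2 site. Of 32851 such windows, 1.74% held the octamer and 0.731% the joint core. Both motifs were looked for in the 190 of 268 genes named in the text that have a window. Foxa2, Foxf1 and Gsc were not among the 268. The stretches below are from genes with per-library values whose window held a motif. Each stretch runs 5′ to 3′ on the gene's own strand, and capitals mark the motif, which reads as its reverse complement where it lies on the other strand. Nanog, Zfp42, Zfp296 and Spp1 fell, and Cdx2 and Slc7a11 rose.
Nanog, chr6:122707371-122707471, plus strand: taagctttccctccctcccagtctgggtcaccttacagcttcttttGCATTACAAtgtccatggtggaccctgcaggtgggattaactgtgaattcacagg
Zfp42, chr8:43307142-43307241, minus strand: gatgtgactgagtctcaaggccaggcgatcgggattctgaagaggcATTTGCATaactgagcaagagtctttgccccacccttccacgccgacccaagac
Zfp296, chr7:19577130-19577229, plus strand: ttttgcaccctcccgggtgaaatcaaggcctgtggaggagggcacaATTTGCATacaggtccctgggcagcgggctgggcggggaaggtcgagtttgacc
Spp1, chr5:104435942-104436035, plus strand: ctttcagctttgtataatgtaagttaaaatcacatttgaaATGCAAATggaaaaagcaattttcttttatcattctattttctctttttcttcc
Cdx2, chr5:147307343-147307442, minus strand: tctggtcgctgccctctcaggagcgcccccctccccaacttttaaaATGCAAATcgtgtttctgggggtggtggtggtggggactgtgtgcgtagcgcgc
Slc7a11, chr3:50443614-50443708, minus strand: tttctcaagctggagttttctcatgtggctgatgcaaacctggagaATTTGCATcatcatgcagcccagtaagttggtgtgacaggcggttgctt
The joint core in Nanog starts 72 bases before the nearer and 148 before the farther of the listed starts, and the octamer starts 111 bases before the start of Zfp296 and 186 before that of Zfp42. In Cdx2 it starts 147, in Slc7a11 49 and in Spp1 210 bases before a start. The windows of Sfrp2, Lgr4, Elf3, Col3a1, Ndufs4 and, after its start, Sox1 also held the octamer. Pou5f1, Sox2, Fgf4, Tcl1 and Utf1 have windows without these letters, which says nothing about binding elsewhere. Only 69.0% of the genes tested, 68.2% of those at least 4-fold higher and 64.3% of those at least 4-fold lower had a window, so shares of motifs in the gene sets were not computed. A match is a description of the letters and no evidence of binding.

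Pluripotency regulators fell almost without exception. Of 21 pluripotency transcription factors, 20 fell and 1 rose, with a median of -4.45. Over all genes, 62.3% were called, 31.2% higher and 31.2% lower. In bulk RNA, fewer cells of a type and less RNA per cell cannot be told apart. Nanog, a homeobox factor of the core network, went from 739 and 769.5 CPM in control to 111 and 114 CPM in doxycycline, a change of -2.75 ± 0.053 (adjusted p = 4.61e-26). Sox2, the partner of Oct4 on DNA, went from 495 and 505 CPM in control to 60.1 and 66.7 CPM in doxycycline (-2.98 ± 0.057). Both kept a measurable level, and in each the control and doxycycline libraries lie far apart. Esrrb, an orphan nuclear receptor of self-renewal, went from 1049 and 1065 CPM in control to 21.98 and 23.6 CPM in doxycycline (-5.54 ± 0.071). Klf4, a zinc finger factor downstream of LIF, went from 503 and 495 CPM in control to 19.1 and 21.03 CPM in doxycycline (-4.64 ± 0.065). Zfp42, known as Rex1 and a marker of the naive state, went from 1489.7 and 1478 CPM in control to 49.6 and 51.03 CPM in doxycycline (-4.88 ± 0.056). These 3 fell much further than Nanog and Sox2, and their libraries within a group lie close together. Foxd3, a forkhead factor needed for self-renewal, went from 74.6 and 72.7 CPM in control to 0.112 and 0.119 CPM in doxycycline (-9.23 ± 0.21). Nr0b1, or Dax1, a nuclear receptor that binds Oct4, went from 243 and 236 CPM in control to 0.615 and 0.657 CPM in doxycycline (-8.54 ± 0.11). These were the deepest falls of the list, to under 1 CPM in both doxycycline libraries. Tbx3, a T-box factor, fell least, by -0.27 ± 0.052 from 376 and 383 CPM, and Sall4 fell (-0.99 ± 0.051). Tfe3, a bHLH factor that acts outside the core network, was the member that rose (0.19 ± 0.051), a call lost with offsets for effective transcript length.

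**Figure D1:**
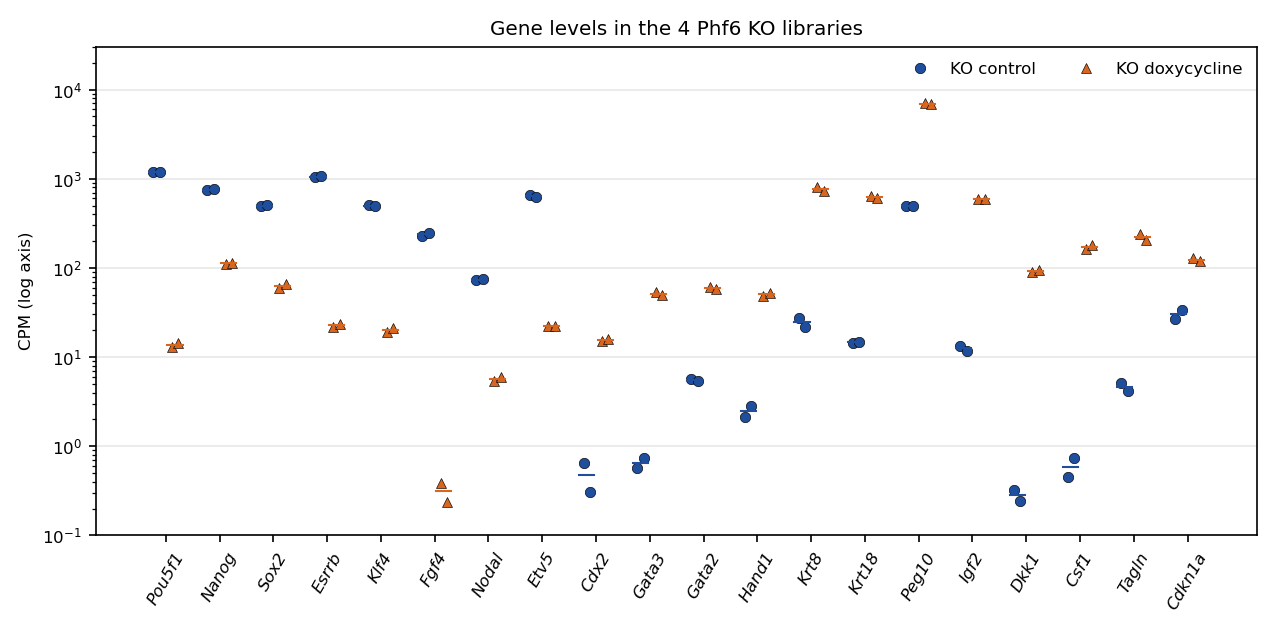
CPM of 20 genes in the 4 KO libraries, on a log axis. Each point is 1 library, circles for control and triangles for doxycycline, and short lines are means of 2 libraries; in all 20 genes the groups do not overlap, as in 78.7% of all genes tested, with Pou5f1 to Etv5 lower and Cdx2 to Cdkn1a higher in doxycycline.

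Other genes of the stem cell state followed. Of 28 in the list, 22 fell and 3 rose, with a median of -2.04. Tdh, the threonine dehydrogenase that feeds one-carbon metabolism in mouse stem cells, went from 176 and 175 CPM in control to 0.839 and 0.478 CPM in doxycycline (-8.03 ± 0.11). Tcl1, a coactivator of Akt, went from 112 and 112 CPM in control to 0.224 and 0.239 CPM in doxycycline (-8.88 ± 0.14). Zfp296, a zinc finger gene of pluripotent cells that is outside the list, went from 132 and 134 CPM in control to 0.671 and 0.478 CPM in doxycycline (-7.83 ± 0.12). Each of these was at or below 1 CPM in both doxycycline libraries. L1td1, an RNA-binding protein of stem cells, changed by -4.55 ± 0.059, and Dppa5a, a KH-domain protein, by -4.31 ± 0.073. Spp1, the secreted phosphoprotein osteopontin, fell from 1674 and 1560.2 to 416 and 370.0 CPM (-2.04 ± 0.055). The RNA-binding protein Lin28a rose instead, by 0.51 ± 0.053, as did the ubiquitin ligase gene Trim71 (0.39 ± 0.063). Lin28a and Trim71 belong to the let-7 pathway of early development. Morc1, a silencer of transposons, fell (-5.44 ± 0.20), and so did the co-repressor Trim28 (-1.28 ± 0.051).

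Genes of the formative and primed epiblast, the states that follow naive pluripotency, did not come up as a group. Of 17 tested, 6 rose and 9 fell (median -0.75). Otx2, the homeobox factor that drives the exit from the naive state, fell from 29.6 and 29.7 to 6.99 and 6.15 CPM (-2.17 ± 0.12). Fgf5, the textbook marker of this state, had 8 and 16 counts in the control and 5 and 5 in the doxycycline libraries and was not tested. Nkx6-3, a homeobox gene, had 9.61 and 8.94 CPM in the control and no read with doxycycline, so it was at least 53.4-fold lower. Among those that rose were Sox4, an SRY-box factor (2.69 ± 0.075), Cldn6, a claudin of early epithelia (2.33 ± 0.081), and the de novo methyltransferase Dnmt3b (0.89 ± 0.050). Pou3f1, or Oct6, moved from 13.9 and 13.3 CPM in control to 17.3 and 17.3 CPM in doxycycline (0.35 ± 0.12), which was not called without control replicate 2.

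Genes of growth factor signaling between stem cells fell at their start, at the ligand. Fgf4, the growth factor through which they act on their neighbours, went from 231 and 246 CPM in control to 0.392 and 0.239 CPM in doxycycline (-9.52 ± 0.13, adjusted p = 3.59e-29). Of 23 genes of FGF signaling and its ERK feedback, 13 fell and 7 rose (median -1.08, or -1.63 over the 22 that pass the filter when only the KO libraries are fitted). Known ERK targets were among the falls. Etv5, an ETS factor, went from 649.5 and 631 CPM in control to 22.4 and 22.5 CPM in doxycycline (-4.83 ± 0.059). Spry4, a Sprouty inhibitor of the pathway, went from 386 and 404 CPM in control to 17.1 and 15.9 CPM in doxycycline (-4.58 ± 0.063), and Dusp6, an ERK phosphatase, from 158 and 174 CPM in control to 28.98 and 26.6 CPM in doxycycline (-2.58 ± 0.065). Etv4, a second ETS factor (-5.02 ± 0.10), and Fgf15, another ligand gene (-5.21 ± 0.27), fell as far. The control and doxycycline libraries are well apart in all of these. Most receptor genes moved the other way. Fgfr1 rose from 112 and 111 to 467 and 436 CPM (2.02 ± 0.053) and Fgfr2, the receptor that trophoblast stem cells use for Fgf4, from 7.69 and 9.97 to 30.6 and 28.98 CPM (1.75 ± 0.10). Fgfr3 rose as well (0.90 ± 0.15), and Fgfr4 fell (-2.22 ± 0.25).

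The Nodal pathway, a TGF-beta branch active in the epiblast, fell at its ligands, co-receptor and antagonists. Of 20 genes, 12 fell and 6 rose (median -0.85, or -0.27 over the 19 with at least 5 CPM on average). Tdgf1, the co-receptor Cripto, went from 932 and 934 CPM in control to 6.15 and 5.50 CPM in doxycycline (-7.32 ± 0.21). Nodal itself went from 72.6 and 74.7 CPM in control to 5.37 and 6.03 CPM in doxycycline (-3.69 ± 0.10). Lefty1, its secreted inhibitor, went from 50.4 and 45.2 CPM in control to 0.336 and 0.418 CPM in doxycycline (-6.96 ± 0.20). Inhbb, the activin beta B subunit, went from 165 and 159 CPM in control to 0.839 and 1.14 CPM in doxycycline (-7.36 ± 0.12). Lefty2, the other inhibitor, fell (-5.51 ± 0.12), and so did the ligand gene Gdf3 (-5.88 ± 0.17). The intracellular transducers did not fall with them. Smad2 rose by 0.63 ± 0.059, Smad3 by 0.997 ± 0.071 and Smad4 by 0.41 ± 0.056.

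LIF was present in both conditions. Of 16 genes of its pathway, 10 rose and 6 fell (median 0.48). The receptor gene Lifr fell from 132 and 135 to 21.2 and 23.1 CPM (-2.59 ± 0.074). The feedback gene Socs2 fell (-3.20 ± 0.093). Il6st, the shared receptor chain gp130, rose by 0.34 ± 0.050, the kinase gene Jak2 by 1.50 ± 0.11 and Stat3, the transcription factor they activate, by 0.38 ± 0.052. Socs3, the classic Stat3 feedback gene, moved from 165 and 175 CPM in control to 151 and 149 CPM in doxycycline (-0.18 ± 0.053), which was not called without control replicate 2.

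BMP genes leaned upward, with 17 of 26 higher and 4 lower (median 0.86, or 0.83 with members whose KO control or doxycycline group had no read set to their bound). Id3, an inhibitor of differentiation and direct BMP target, went from 50.9 and 48.9 CPM in control to 343 and 330.4 CPM in doxycycline (2.75 ± 0.068). Msx2, a homeobox target of BMP, went from 0.256 and 1.09 CPM in control to 38.8 and 40.8 CPM in doxycycline (5.84 ± 0.19). Smad6, an inhibitory Smad, changed by 2.24 ± 0.13, and Nog, the secreted BMP antagonist Noggin, by 5.30 ± 0.39. Among the ligands Bmp2 rose from 0.513 and 0.608 to 6.21 and 6.63 CPM, while Bmp4 fell (-0.37 ± 0.089, a call lost with effective-length offsets). Grem1, another antagonist, fell (-2.92 ± 0.46).

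Wnt genes went both ways. Of 33, 17 rose and 10 fell (median 0.85, but -0.28 over the 17 with at least 5 CPM on average, and 0.43 without control replicate 2). Dkk1, a secreted Wnt antagonist and itself a target of the pathway, had the largest rise of the naming rule. It went from 0.320 and 0.243 CPM in control to 91.01 and 94.5 CPM in doxycycline (8.33 ± 0.17, adjusted p = 1.58e-25). Axin2, a feedback inhibitor that reads out canonical signaling, went from 5.83 and 5.77 CPM in control to 34.5 and 37.6 CPM in doxycycline (2.63 ± 0.12). The ligand gene Wnt10b had 1 count in the controls and 348 with doxycycline, a ratio of 322-fold (57.5 to 12800.0) with its 95% counting interval. Wnt7b rose by 2.61 ± 0.18 and Wnt9a by 3.12 ± 0.24. The secreted antagonists Sfrp1 (-2.81 ± 0.068) and Sfrp2 (-1.78 ± 0.12) fell, as did the receptor gene Lgr4 (-1.95 ± 0.073).

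Of 20 genes of the Hippo pathway and its effector Yap, 17 rose and 2 fell (median 0.99). Cyr61, a secreted matricellular Yap target, went from 25.3 and 20.7 CPM in control to 615 and 591 CPM in doxycycline (4.71 ± 0.070). Ankrd1, an ankyrin repeat target, went from 0.192 and 0.122 CPM in control to 7.27 and 8.19 CPM in doxycycline (5.57 ± 0.40). Amotl2, an angiomotin that binds Yap, went from 122 and 125 CPM in control to 449 and 448 CPM in doxycycline (1.86 ± 0.052). Ctgf, a related secreted target, rose by 1.29 ± 0.080, and Yap1 itself by 0.54 ± 0.048. Tead4, the DNA-binding partner of Yap in early trophectoderm, was among those that fell, from 36.97 and 38.4 to 18.8 and 20.3 CPM (-0.95 ± 0.087).

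**Figure D2:**
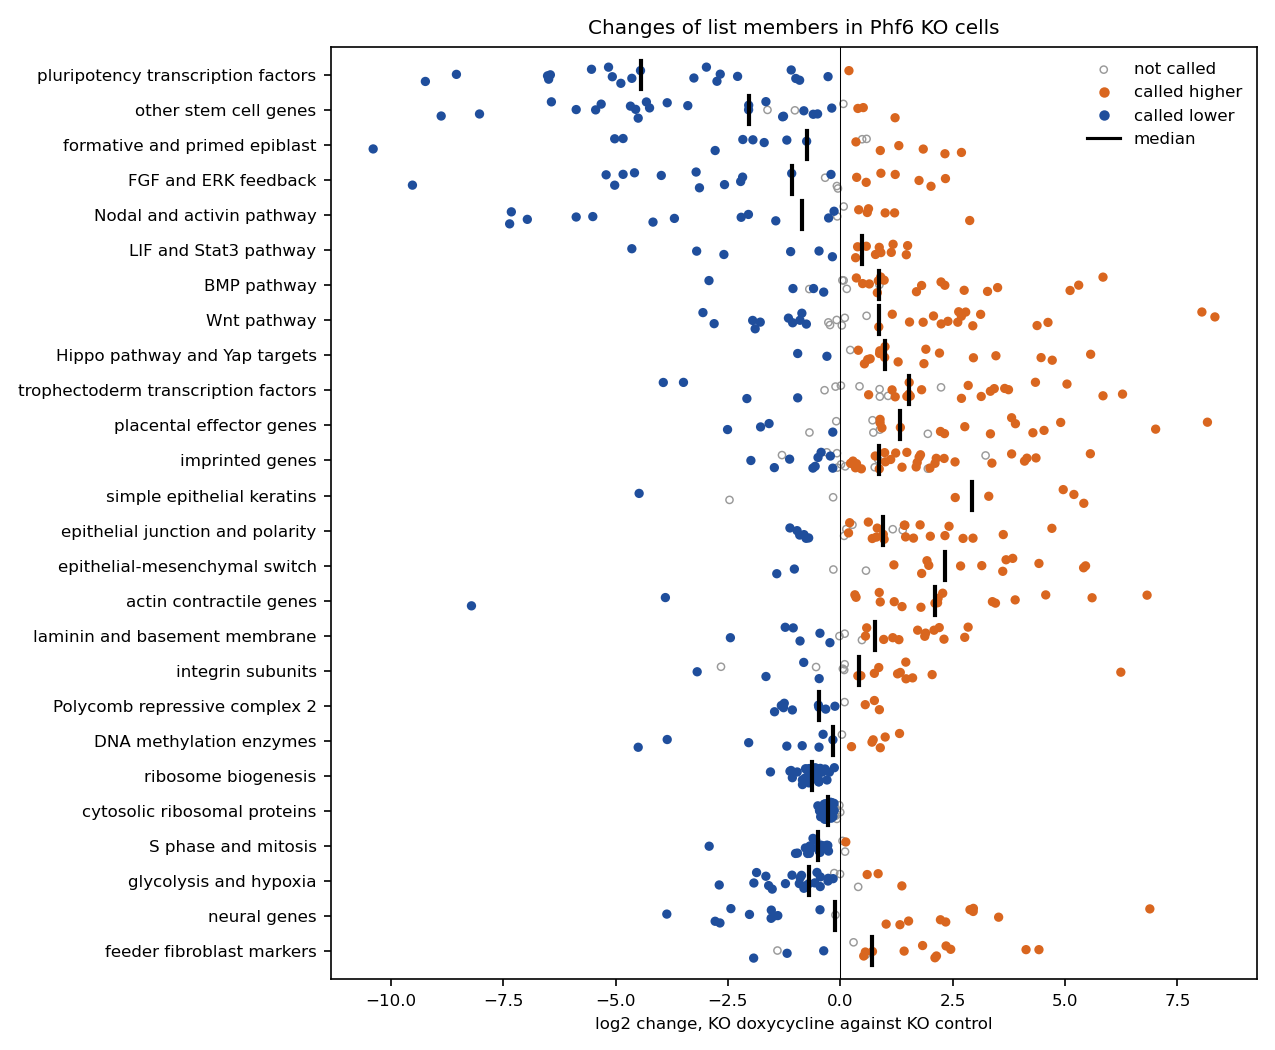
Log2 change of each tested member of 26 gene lists, KO doxycycline against KO control. Each point is 1 gene, filled orange where called higher, filled blue where called lower and open where not called, and black bars are medians. The medians of the stem cell lists lie left of 0, though some of their members rose. Trophectoderm, keratin and actin lists lie mostly right, and ribosome biogenesis wholly left.

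Regulators of trophectoderm rose from low levels. Of 31 transcription factors of the lineage, 19 rose and 4 fell (median 1.52, or 2.69 over the 21 with at least 5 CPM on average). Cdx2, which specifies trophectoderm, went from 0.641 and 0.304 CPM in control to 15.2 and 16.1 CPM in doxycycline (5.04 ± 0.23, adjusted p = 1.83e-17). Gata3, a GATA factor acting beside it, went from 0.577 and 0.729 CPM in control to 53.4 and 49.2 CPM in doxycycline (6.28 ± 0.18). Gata2, its relative in trophoblast, went from 5.64 and 5.41 CPM in control to 60.9 and 57.8 CPM in doxycycline (3.42 ± 0.10). Each was low in both controls and higher in both doxycycline libraries. Hand1, a bHLH factor of trophoblast giant cells, went from 2.11 and 2.86 CPM in control to 48.6 and 52.8 CPM in doxycycline (4.34 ± 0.13). Esx1, an X-linked placental homeobox gene, went from 1.86 and 2.74 CPM in control to 31.2 and 30.7 CPM in doxycycline (3.74 ± 0.13). Dlx3, a homeobox factor of placental labyrinth, rose by 3.66 ± 0.22, and the zinc finger gene Klf6 rose by 3.34 ± 0.061. Tfap2c, the AP-2 gamma factor of trophoblast stem cells, was already present, at 38.6 and 37.5 CPM, and rose by 0.63 ± 0.074. Not all factors of the lineage followed, among them regulators of its stem cells. Eomes, a T-box factor of trophoblast stem cells, stood at 2.63 and 2.37 CPM in control and 2.80 and 3.94 CPM in doxycycline and did not pass (adjusted p = 0.092). Elf5, another of their regulators, had 1 and 0 counts in the controls and 0 and 3 with doxycycline. Ets2, an ETS factor, had a log2 value of 0.01 ± 0.072 (adjusted p = 0.896). Sox15, a partner of Hand1 in giant cells, fell from 6.41 and 6.20 to 0.392 and 0.418 CPM (-3.94 ± 0.30).

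Of 25 tested placental effector genes, 15 rose and 4 fell (median 1.34, or 3.04 over the 14 with at least 5 CPM on average). Csf1, the macrophage growth factor that the placenta also makes, went from 0.449 and 0.729 CPM in control to 165 and 180.2 CPM in doxycycline (8.17 ± 0.13). Zfp36l3, a rodent placental RNA-binding protein, went from 0.705 and 0.729 CPM in control to 96.04 and 91.2 CPM in doxycycline (7.01 ± 0.13). Fabp3, a fatty acid carrier, went from 124 and 115 CPM in control to 1342 and 1087 CPM in doxycycline (3.34 ± 0.11). Nrk, an X-linked kinase of the spongiotrophoblast, rose by 4.28 ± 0.12, and Flt1, a VEGF receptor of trophoblast, by 3.90 ± 0.19. Plac1, an X-linked placental gene, rose from 0.0641 and 0.182 to 3.92 and 3.94 CPM. The other 11 of the 36 list members in the files had no count in any KO library. Among them were Tpbpa, the marker of spongiotrophoblast precursors, the prolactin family hormones Prl3d1 and Prl3b1 of giant cells, and Synb, a fusion protein of the labyrinth. A count of 0 in these libraries allows up to 0.168 to 0.192 CPM. Tfrc, the transferrin receptor, fell (-1.59 ± 0.054).

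Imprinted genes, expressed from 1 parental allele and often active in placenta, rose more often than they fell, with 28 of 47 higher and 9 lower. Their median was 0.87, or 0.78 with members without a read in a group at their bound. Igf2, a fetal growth factor, went from 13.5 and 11.5 CPM in control to 587 and 594 CPM in doxycycline (5.56 ± 0.074). Its neighbour H19, a noncoding RNA, went from 0.897 and 0.304 CPM in control to 10.01 and 10.5 CPM in doxycycline (4.10 ± 0.21). Peg10, a retrotransposon-derived gene that the placenta needs, went from 498 and 495 CPM in control to 7036 and 6898 CPM in doxycycline (3.81 ± 0.055), and Sfmbt2, a Polycomb-related factor of trophoblast, from 5.13 and 4.56 CPM in control to 48.8 and 51.5 CPM in doxycycline (3.37 ± 0.10). Cdkn1c, a growth-restraining CDK inhibitor, rose by 1.78 ± 0.062. Phlda2, which limits placental growth, went from 63.05 and 59.8 CPM in control to 54.9 and 54.3 CPM in doxycycline (-0.17 ± 0.065), a fall whose call was lost without control replicate 1 or without either doxycycline library. Zdbf2 fell (-0.56 ± 0.077) and so did Snrpn, a splicing protein gene (-0.50 ± 0.060). Among 7 Rhox genes tested, X-linked homeobox genes of placenta and gonad, 3 rose and none fell (1 fell without control replicate 2), with Rhox6 from 0.705 and 1.03 to 21.8 and 20.5 CPM and Rhox9 from 0.833 and 0.608 to 9.29 and 9.44 CPM. Near-identical Rhox copies share reads, so their values are uncertain. With the 4 KO libraries fitted alone, only 3 of the 7 pass the filter, and all 3 rose.

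Most epithelial structure genes rose. Of 8 keratins tested, 5 rose and 1 fell. Krt8, the type II keratin of simple epithelia, went from 27.1 and 21.9 CPM in control to 798 and 722 CPM in doxycycline (4.96 ± 0.10). Krt18, its partner, went from 14.5 and 14.7 CPM in control to 638 and 609 CPM in doxycycline (5.42 ± 0.10). Krt7 and Krt19, further keratins of trophoblast, rose by 3.30 ± 0.18 and 2.56 ± 0.13. Krt42 fell from 17.7 and 19.9 to 1.01 and 0.657 CPM. Reads shared with pseudogenes of Krt8 and Krt18 make their levels uncertain.

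Of 31 junction and polarity genes, 20 rose and 6 fell (median 0.96). Cldn4, a tight junction claudin, went from 77.4 and 77.4 CPM in control to 556 and 471 CPM in doxycycline (2.73 ± 0.072). Dsc2, a desmosomal cadherin, went from 4.49 and 4.98 CPM in control to 57.8 and 59.3 CPM in doxycycline (3.62 ± 0.095), and Prss8, a membrane protease of epithelia, from 1.41 and 1.64 CPM in control to 42.6 and 37.5 CPM in doxycycline (4.71 ± 0.14). Tjp1, the scaffold ZO-1, rose by 0.97 ± 0.055. Cdh1, the E-cadherin that stem cells already carry, moved from 235 and 232 CPM in control to 263 and 276 CPM in doxycycline (0.21 ± 0.048). Cdh3, P-cadherin, fell (-1.12 ± 0.10), and so did the protease inhibitors Spint1 (-0.90 ± 0.059) and Spint2 (-0.96 ± 0.078). Among 13 genes of the blastocoel pump and water channels, 6 rose and 4 fell, with log2 changes from -3.97 to 2.85. Their summed level was 1115 and 1102 CPM in control and 1124 and 1078 CPM in doxycycline. The members named next are among the falls. The sodium pump subunit Atp1b1, which trophectoderm uses to fill the blastocyst cavity, fell (-1.83 ± 0.054). Aqp3, a water and glycerol channel, fell from 22.04 and 26.9 to 1.40 and 1.73 CPM (-3.97 ± 0.16).

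Genes of the cytoskeleton and of the epithelial-mesenchymal switch rose beside the epithelial ones. Of 19 actin contractile genes, 17 rose and 2 fell (median 2.10). Tagln, the smooth muscle protein SM22, went from 5.06 and 4.13 CPM in control to 238 and 207 CPM in doxycycline (5.60 ± 0.11). Acta2, smooth muscle actin, went from 0.256 and 0.0608 CPM in control to 19.1 and 17.8 CPM in doxycycline (6.82 ± 0.30). Tpm1, a tropomyosin, went from 42.99 and 44.4 CPM in control to 648 and 647 CPM in doxycycline (3.89 ± 0.058), and Myh9, the heavy chain of nonmuscle myosin, from 500.0 and 485 CPM in control to 2164 and 2072 CPM in doxycycline (2.10 ± 0.050). Both members that fell are myosin light chains of heart muscle, Myl4 (-3.89 ± 0.22) and Myl7, which had no read with doxycycline and was at least 11.7-fold lower. Of 16 genes of the epithelial-mesenchymal switch, 12 rose and 2 fell (median 2.32). Vim, the intermediate filament vimentin, went from 173 and 161 CPM in control to 678 and 630.2 CPM in doxycycline (1.97 ± 0.055). Cdh2, N-cadherin, went from 2.499 and 2.55 CPM in control to 31.3 and 30.7 CPM in doxycycline (3.61 ± 0.14), and Cdh6, K-cadherin, from 0.384 and 0.486 CPM in control to 18.9 and 20.02 CPM in doxycycline (5.46 ± 0.21). Zeb2 and Snai1, repressors of E-cadherin, rose by 3.84 ± 0.22 and 2.68 ± 0.22. Fn1, fibronectin, fell from 1254 and 1292 to 650.2 and 602 CPM (-1.02 ± 0.062), and Tgfb1 fell (-1.41 ± 0.15) while Tgfb2 rose by 3.69 ± 0.19.

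Basement membrane genes went both ways, the collagen chains up and some linkers down. Of 22 of its genes, 13 rose and 6 fell (median 0.78). Col4a1 and Col4a2, the neighbouring genes of the main collagen IV chains, rose by 2.84 ± 0.062 and 2.77 ± 0.079, Col4a1 from 40.8 and 40.6 to 286 and 298 CPM. Sparc, a matrix-binding glycoprotein, rose by 2.20 ± 0.054 and the perlecan gene Hspg2 by 0.96 ± 0.054. Lama1, the laminin chain of the embryonic basement membrane, fell (-1.05 ± 0.056), and the linker Nid2 fell from 558 and 561 to 104 and 101 CPM (-2.45 ± 0.053). Of 20 integrin subunits, 11 rose and 4 fell. Itgb1, the beta chain shared by most matrix receptors, rose by 1.46 ± 0.048 and Itga6, a laminin receptor chain, by 1.33 ± 0.054. Itgb7, an integrin chain of lymphocyte homing, fell (-3.19 ± 0.14). Itgb8, which forms a TGF-beta-activating receptor, had 2 counts in the controls and a ratio of 83.8-fold (22.9 to 697), doxycycline over control, with its 95% counting interval.

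Several chromatin enzymes of the stem cell state fell. Of 15 genes of DNA methylation, 6 rose and 8 fell. Tet2, a demethylating dioxygenase, went from 628 and 631 CPM in control to 25.1 and 30.7 CPM in doxycycline (-4.50 ± 0.081), and Tet1 from 673 and 713 CPM in control to 47.2 and 48.8 CPM in doxycycline (-3.85 ± 0.063). The third family member, Tet3, rose by 0.998 ± 0.075. Dnmt3l, a cofactor of de novo methylation, fell (-2.04 ± 0.072) as did the methyltransferase Dnmt3a (-1.19 ± 0.053). Of 13 genes of Polycomb repressive complex 2, which places the H3K27 methyl mark, 9 fell and 3 rose. The core subunits Eed and Suz12 fell (-1.31 ± 0.050 and -1.07 ± 0.065), and so did the recruiters Mtf2 (-1.46 ± 0.058) and Jarid2 (-1.26 ± 0.048). Ezh2, the methyltransferase, fell little (-0.33 ± 0.048). Of 15 genes of the NuRD remodeler, 7 rose and 5 fell, and 3 fell without control replicate 1. Chd5, a remodeler of neurons and testis, fell (-1.76 ± 0.12), Hdac2, a deacetylase, fell (-1.09 ± 0.051) and Mbd2, the methyl-binding subunit, rose by 1.32 ± 0.088.

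The title of the series names H2B ubiquitination, and 22 genes of that mark were read. Of these 10 rose and 9 fell, Phf6 included. Rnf20, a ligase of H2B, moved from 73.4 and 75.8 CPM in control to 61.5 and 63.6 CPM in doxycycline (-0.26 ± 0.061), and its partner Rnf40 stood at 104 and 108 CPM in control and 104 and 106 CPM in doxycycline (adjusted p = 0.809). Usp22, the deubiquitinase of the SAGA complex, rose by 0.91 ± 0.047, and Usp27x, a related X-linked enzyme, by 1.55 ± 0.12. Usp44, a deubiquitinase that falls during stem cell differentiation, fell (-1.76 ± 0.11). Bard1, the partner of Brca1, fell (-1.47 ± 0.075).

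Growth genes fell by small amounts in large numbers. All 30 ribosome biogenesis genes fell, with a median of -0.63 and a range of -1.55 to -0.13. This count was 29 when any 1 of the 4 KO libraries was left out. Rrn3, the RNA polymerase I initiation factor, went from 278 and 287 CPM in control to 94.9 and 97.2 CPM in doxycycline (-1.55 ± 0.051). Polr1b, the second-largest subunit of that polymerase, fell (-1.12 ± 0.053). Ubtf, which opens ribosomal DNA, fell (-1.10 ± 0.049), and so did Ncl, nucleolin (-0.69 ± 0.056). Of 77 cytosolic ribosomal protein genes, 58 fell and none rose (median -0.28). Among those that passed, Rps18 (-0.50 ± 0.089) and Rplp0 (-0.46 ± 0.068) fell furthest. Their summed level was 100100 and 95120 CPM in control and 85370 and 75340 CPM in doxycycline. Their median was -0.19 without doxycycline replicate 2 and -0.33 without replicate 1, and these short genes were lower in replicate 2 than in replicate 1 by a median of -0.17. The part of transcript length in this fall was not tested beyond the fit with effective-length offsets, where 57 fell. Of 24 genes of S phase and mitosis, 21 fell and 1 rose (median -0.49). The 1 called higher, Foxm1, a forkhead factor of mitosis, had 0.12 ± 0.053 and kept its call under no alternative run but the one without doxycycline replicate 2. Mybl2, a MYB factor of cycling cells, went from 933 and 926 CPM in control to 121 and 125 CPM in doxycycline (-2.92 ± 0.052), and the topoisomerase gene Top2a fell (-0.997 ± 0.049). Mki67, the proliferation marker, stood at 359 and 377 CPM in control and 365 and 426 CPM in doxycycline and did not pass (adjusted p = 0.311).

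G1 regulators went both ways, 10 of 22 higher and 10 lower. Ccnd1, cyclin D1, went from 111 and 104 CPM in control to 10.01 and 7.41 CPM in doxycycline (-3.62 ± 0.10), while Ccnd2, cyclin D2, went from 1.22 and 1.52 CPM in control to 12.8 and 10.2 CPM in doxycycline (3.06 ± 0.21). Cdkn1a, the CDK inhibitor p21, went from 27.04 and 33.4 CPM in control to 128 and 119 CPM in doxycycline (2.03 ± 0.081). Cdkn2b, p15, rose by 3.09 ± 0.24 and Cdkn1b, p27, by 0.79 ± 0.088. The libraries of each group lie apart in all 3, with cyclin D1 down and cyclin D2 and p21 up. Of 13 genes of the Myc and Max network, 4 rose and 7 fell. Mxd4, a repressor that competes with Myc, rose by 1.996 ± 0.077, and its relative Mxd3 fell (-1.23 ± 0.20). Myc and Mycn, the growth-promoting bHLH factors, fell (-0.38 ± 0.067 and -0.91 ± 0.11). Of 24 p53 targets 13 rose and 8 fell. Fas, a death receptor, rose by 3.36 ± 0.31. Btg2, an antiproliferative gene, rose by 1.50 ± 0.053, and Mdm2, the ligase of p53, by 0.24 ± 0.053. Bax and Zmat3 fell (-0.43 ± 0.056 and -0.69 ± 0.058).

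Some stress response factors rose, and some enzymes of amino acid synthesis in the same list fell. Of 23 genes of the integrated stress response, 9 rose and 13 fell. Atf3, a bZIP repressor, went from 3.97 and 3.83 CPM in control to 61.1 and 58.1 CPM in doxycycline (3.93 ± 0.12), and Cebpb, a C/EBP factor, from 2.24 and 3.16 CPM in control to 64.7 and 46.1 CPM in doxycycline (4.35 ± 0.34). Slc7a11, the cystine importer, went from 11.98 and 11.6 CPM in control to 88.3 and 65.5 CPM in doxycycline (2.71 ± 0.16). All 3 are low in both controls, and for Cebpb and Slc7a11 doxycycline replicate 1 is well above replicate 2. Among the biosynthetic enzymes, Cth, Psat1 and Asns fell. Cth, which makes cysteine, went from 104 and 103 CPM in control to 8.17 and 9.20 CPM in doxycycline (-3.57 ± 0.076), and Psat1, of serine synthesis, from 491 and 478 CPM in control to 149 and 143 CPM in doxycycline (-1.73 ± 0.049). Asns, asparagine synthetase, fell (-1.09 ± 0.049). Of 14 interferon-stimulated genes, 9 rose and 3 fell, though their median of 0.66 became -0.22 over members with at least 5 CPM. Oasl2, an antiviral protein, rose by 3.23 ± 0.43, while Oas1a fell (-2.05 ± 0.14), as did Ddx58, the RIG-I sensor (-0.72 ± 0.093).

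Energy genes moved mostly down. Of 27 genes of glycolysis and hypoxia, 21 fell and 3 rose (median -0.71). Ldha, the lactate dehydrogenase of glycolytic cells, went from 1603 and 1561 CPM in control to 433 and 400.4 CPM in doxycycline (-1.92 ± 0.064). Pfkp, a phosphofructokinase, went from 381 and 398 CPM in control to 61.3 and 59.03 CPM in doxycycline (-2.69 ± 0.066), and Hk2, hexokinase 2, from 496 and 490.5 CPM in control to 143 and 128 CPM in doxycycline (-1.86 ± 0.061). The glucose importers did not follow them. Slc2a1 rose by 0.60 ± 0.069 and Slc2a3 by 0.84 ± 0.050. Of 43 nuclear genes of the respiratory chain, 28 fell and 2 rose, with a median of -0.22, Uqcrq (-0.73 ± 0.070) and Ndufs4 (-0.54 ± 0.060) lowest. Without doxycycline replicate 2, 22 fell and 6 rose. Of the 13 proteins encoded in the mitochondrial genome, 3 rose and 1 fell, but 6 rose without doxycycline replicate 1 (median 0.43 against 0.24), with mt-Nd3, a subunit of complex I, highest (2.12 ± 0.46). The call on mt-Nd4 (0.48), another subunit, was lost without either control library or without doxycycline replicate 2. Of 26 cholesterol genes, 14 rose and 4 fell, the rises at most 0.76. Abca1, a cholesterol exporter, was among the falls (-1.18 ± 0.065). Among amino acid transporters, 13 of 27 rose and 10 fell. Slc7a3, a cationic transporter of stem cells, fell from 208 and 195 to 9.40 and 7.89 CPM (-4.54 ± 0.074), and Slc7a5, the leucine importer, fell (-1.51 ± 0.055). Slc38a4, an imprinted placental transporter, rose by 0.99 ± 0.046.

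Ranked by fold, the naming rule gave 12 rises and 12 falls, of which those above are part. The interferon-induced chemokine Cxcl10 had 2 counts in the controls and 709 with doxycycline, a ratio of 328-fold (90.6 to 2720.0) with its 95% counting interval. Pcp4, a calmodulin regulator, had a ratio of 245-fold (43.5 to 9690.0), the amino acid transporter Slc6a14 of 117-fold (32.00 to 969) and the cytochrome Cyp1b1 of 91.7-fold (25.1 to 762). These 4 and Wnt10b rest on 1 or 2 control counts, and the intervals cover counting error only. Gbp2, a guanylate-binding protein, went from 0.128 and 0.425 CPM in control to 28.8 and 27.9 CPM in doxycycline (6.62 ± 0.24). Igfbp5, an IGF-binding protein, went from 0.641 and 0.669 CPM in control to 60.2 and 66.4 CPM in doxycycline (6.58 ± 0.17). Npas4, a neuronal activity factor, went from 0.0641 and 0.182 CPM in control to 12.6 and 12.1 CPM in doxycycline (6.55 ± 0.37). Among the falls, Aoah, an endotoxin-inactivating lipase, had no read with doxycycline and was at least 35.4-fold lower. The pseudogenes H2-M6-ps and Tdgf1-ps1 were also among the falls, and since Tdgf1-ps1 shares sequence with Tdgf1 its value is uncertain.

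By deposited TPM, which is scaled for length and so compares genes, other changes stand out. Dppa5a had the largest fall, from 4672 to 257 TPM, followed by Ptma, prothymosin alpha, from 5117 to 2847 TPM. Gapdh, a glycolysis enzyme often used as a reference gene, fell from 8830.5 to 7172 TPM, a CPM change of -0.45 ± 0.055. The chaperone Hsp90aa1 fell from 3389 to 1937 TPM and Pou5f1 from 1256 to 16.2 TPM. Ptma and Gapdh share reads with processed pseudogenes, so their levels are uncertain. Tuba1a, an alpha-tubulin, had the largest rise, from 635 to 3482 TPM. Ldhb, the lactate dehydrogenase of oxidative tissues, rose from 480.2 to 3024 TPM while Ldha fell from 1410.4 to 406 TPM, so Ldhb went from the lower to the higher of the 2. Fabp3 rose from 231 to 2551 TPM, Bex3, an X-linked adaptor, from 788 to 2371 TPM and Peg10 from 96.1 to 1473 TPM. Cdx2 reached 10.2 TPM, against 23.2 for Gata3, 39.9 for Gata2 and 39.9 for Hand1. The keratin pair stood far above these factors, Krt8 at 634 and Krt18 at 693 TPM.

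**Figure D3:**
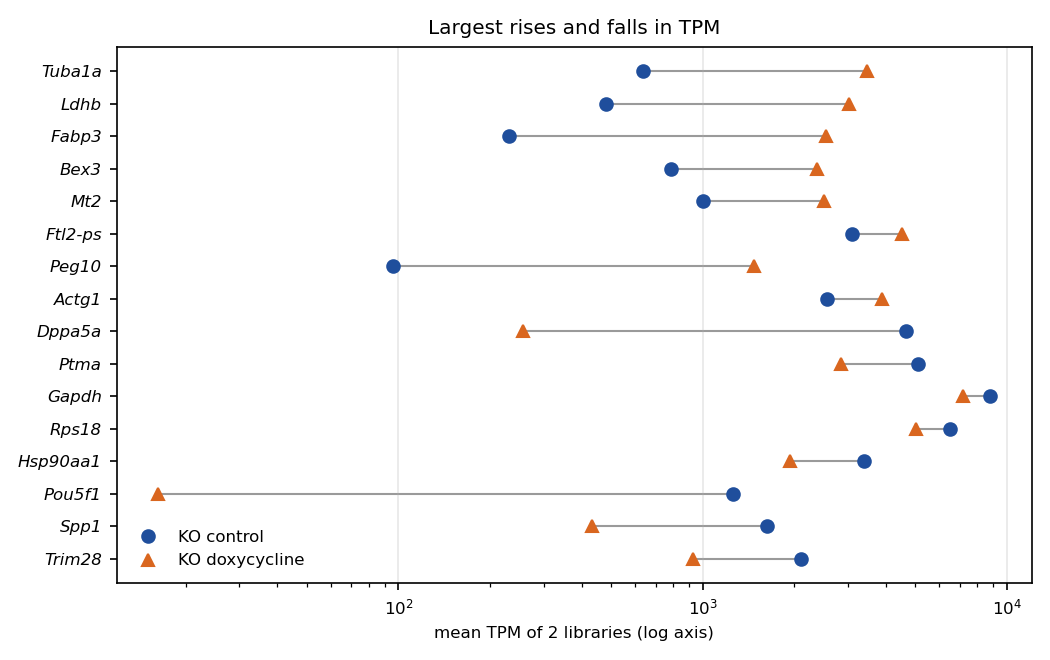
Mean deposited TPM of 2 libraries per group, log axis, for the 8 genes with the largest rise and the 8 with the largest fall in TPM. Circles are KO control and triangles KO doxycycline; Peg10 and Fabp3 show the longest rises, and Pou5f1 and Dppa5a the longest falls on this scale.

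Markers of other cell types were read to see what else the cells could hold. Of 22 primitive and visceral endoderm genes, 7 rose and 9 fell, with log2 changes from -3.43 to 4.44. Their summed level was 853 and 829 CPM in control and 827 and 800 CPM in doxycycline. This even sum holds changes in both directions, among them the rise of Col4a1 and the fall of Lama1 given above. Gata6, which directs primitive endoderm, went from 0.641 and 0.547 CPM in control to 1.73 and 2.21 CPM in doxycycline (1.72 ± 0.34). Dab2, an endocytic adaptor, rose by 3.50 ± 0.15, and Plat, a secreted protease, by 3.19 ± 0.14, both also known in other epithelia. Gata4 and Sox17 stayed under 2 CPM in all 4 libraries and did not pass (adjusted p = 0.235 and 0.281), and Ttr, made by visceral endoderm, had no read. Foxa2 went from 3 counts in the controls to 75 with doxycycline, a ratio of 23.2-fold (7.63 to 115) with its 95% counting interval. Of 15 primitive streak and mesoderm genes, 4 rose and 2 fell, and their sum fell from 83.1 and 81.6 to 24.9 and 22.9 CPM. Most of that sum was Pecam1, an adhesion molecule of endothelium and of stem cells (69.7 and 67.5 to 0.951 and 0.956 CPM). Brachyury had 5 and 11 counts in control and 3 and 1 in doxycycline. The sum does not show rises from few reads. Foxf1 went from 3 counts in the controls to 173 with doxycycline, a ratio of 53.4-fold (18.0 to 262). Gsc went from 3 to 120, or 37.0-fold (12.4 to 182), both with 95% counting intervals. The neural list was even in KO, 10 of 21 higher and 10 lower, and Pax6 stayed under 0.4 CPM. In WT, 6 of these genes were higher and 12 lower. Vgf, a neuropeptide precursor gene, rose in KO from 1.47 and 1.34 to 17.9 and 14.5 CPM (3.52 ± 0.205). Sox1, an early neural factor, fell (-1.54 ± 0.16), Nes, the filament nestin, rose by 2.88 ± 0.075, and Islr2, an axon guidance protein, fell (-3.86 ± 0.11). Of 17 fibroblast markers, 11 rose and 3 fell, and their sum went from 118 and 110 to 161 and 156 CPM. Col3a1 stayed under 0.6 CPM, and Lum, Fap and S100a4 had at most 2 counts in a library. Col5a2, a fibrillar collagen, rose from 1.92 and 1.40 to 30.3 and 27.9 CPM (4.13 ± 0.16), Col1a1, collagen I, rose from 4.93 and 4.19 to 21.6 and 18.5 CPM, and the surface protein Thy1 fell (-1.93 ± 0.11). The part of feeder cells in the matrix and actin results was not tested beyond these values. Blood markers had 3 of 8 lower, or 5 with the replicate block. The 1 called higher lost its call without control replicate 1 or without either doxycycline library. Globin reads stood out in 1 library: Hbb-bs had 9.30 CPM in control replicate 2 and at most 0.320 in the other 3. Of 17 genes of the 2-cell embryo program 4 fell and none was called higher by edgeR, though 2 were without control replicate 1. With the 4 KO libraries fitted alone, only 3 of these 2-cell genes pass the filter, and all 3 fell. Of 22 germline genes 6 rose and 8 fell, Taf7l by 1.71 ± 0.18 upward and Rpl10l downward (-2.23 ± 0.081). Of 24 retinoid pathway genes 9 rose and 10 fell, among the latter the receptor gene Rarg (-2.82 ± 0.081) and Crabp1, a binding protein (-1.83 ± 0.080). Without the retinoic acid libraries, 16 Hox genes pass the filter, 13 of them higher. With the 4 KO libraries alone 10 pass, all 10 higher. The median of the 38 tested with all libraries was 2.09, or 1.02 with groups without a read at their bound. Of 38 Hox genes, 21 rose and none fell, though 1 was called lower without control replicate 1, and most of the 38 stayed under 4 CPM.

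The same 2-day treatment of WT cells shows which of these changes also occur with Phf6 present. Oct4 RNA did not end at the same level in both lines. With doxycycline, Pou5f1 averaged 13.7 CPM in KO and 40.2 CPM in WT, a difference in response of -1.80 ± 0.16 (adjusted p = 9.58e-06). The part of this gap in the other differences was not tested. Of the genes called in KO, 4447 were also higher and 4412 also lower in WT, where 31.8% of genes were called higher and 31.3% lower. The difference between the responses, KO minus WT, was tested directly and called for 19.1% of genes, 9.10% with a more positive response in KO and 10.0% with a more negative one. Under upper-quartile scaling, which moves the median difference over all genes from -0.01 to 0.05, 2161 calls were positive and 1331 negative, so 61.9% of calls were positive against 47.6%. Median changes of the lists stood side by side as follows. The pluripotency factors had -4.45 in KO and -3.46 in WT, and 11 of 21 members were called more negative and 4 more positive. Trophectoderm factors had 1.52 in KO and 2.33 in WT, with 13 of 31 more negative in KO and 4 more positive. Placental effectors had 1.34 and 1.93, with 11 of 25 more negative and 2 more positive. In both lists these shares lie above the 10.0% of all genes. Without KO control replicate 1, 7 placental effectors were more negative, and 1 trophectoderm factor was more positive.

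The master regulator was among them. Cdx2 rose in WT from 1.18 and 0.996 to 117 and 125 CPM, and the difference between the responses was -1.75 ± 0.50 (adjusted p = 0.0128). Cdx2 was thus well below its WT level in both treated KO libraries, but without KO control replicate 1 the difference was -1.13 (adjusted p = 0.379). Ascl2, a spongiotrophoblast factor, rose from 3.14 and 4.92 to 9.96 and 12.7 CPM in KO and from 5.59 and 6.79 to 66.3 and 77.6 CPM in WT, a difference of -2.06 ± 0.25 (adjusted p = 4.11e-06). Tfap2c differed by -1.76 ± 0.10 and Elf3, an epithelial ETS factor, by -1.23 ± 0.11. Gata3 did not follow them: its difference was 0.83 ± 0.37 and missed the threshold (adjusted p = 0.123). Igf2 reached 2636 and 2581 CPM in WT (difference -1.54 ± 0.11), and H19 started from 21.8 and 23.7 CPM and reached 1593 and 1669 CPM there (difference -2.07 ± 0.38, or -1.12 with adjusted p = 0.36 without KO control replicate 1). The control levels of H19 already differ between the lines. Phlda2 rose in WT by 1.93, where the KO libraries were slightly lower with doxycycline (difference -2.10 ± 0.088). Krt8 and Krt18 differed by 0.02 ± 0.13 and -0.02 ± 0.14 and did not pass (adjusted p = 0.967 and 0.946).

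**Figure D4:**
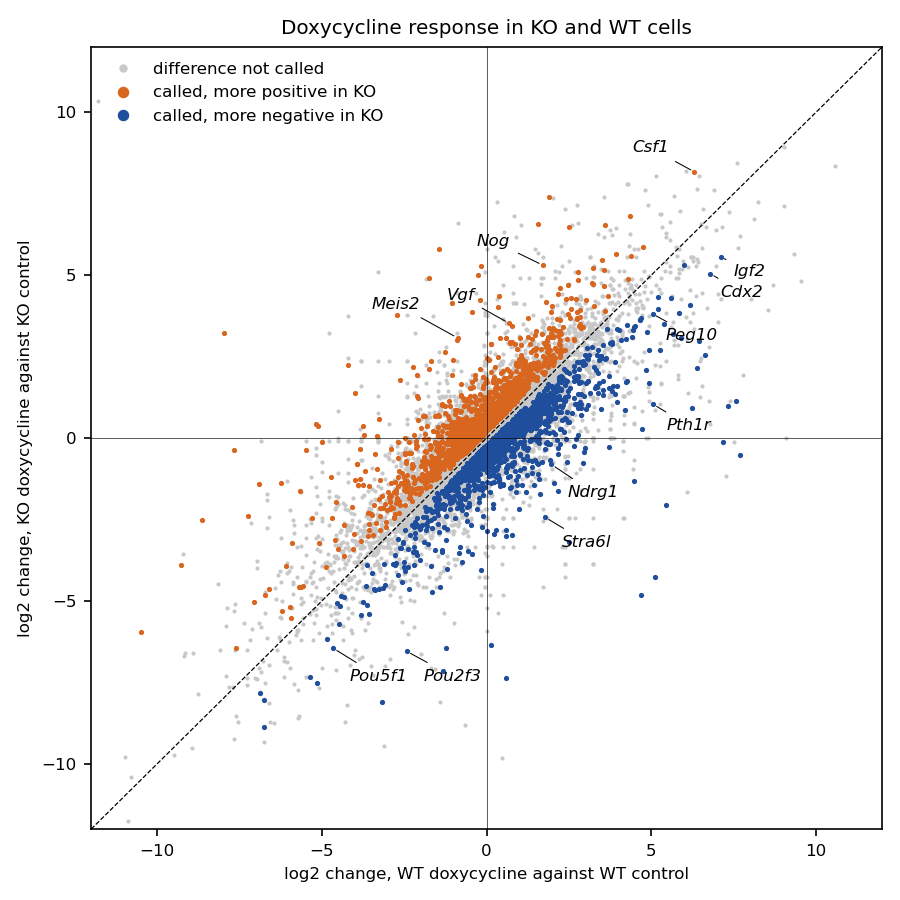
Log2 change with doxycycline in WT (horizontal) and KO cells (vertical), 1 point per tested gene, with the line of equal change dashed. Orange and blue points are genes whose difference was called, more positive or more negative in KO; Cdx2, Igf2 and Peg10 lie below the line in the upper right, Csf1 and Nog above it.

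Other groups leaned the opposite way. The actin contractile genes had a median of 2.10 in KO and 1.25 in WT, with 7 of 19 more positive in KO and 2 more negative. Genes of the epithelial-mesenchymal switch had 2.32 and 1.26, with 6 of 16 more positive and none more negative. This count was 3 without WT control replicate 1 or WT doxycycline replicate 1. Fibroblast markers moved with them, 8 of 17 more positive in KO and none more negative, at the low levels given above, though 4 without WT control replicate 1 and 5 without KO control replicate 2. Of the FGF and ERK genes 11 of 23 were more positive in KO and 2 more negative. Egr1, an immediate early gene of ERK, changed by -3.13 in KO and -4.60 in WT (difference 1.47 ± 0.16). Of the integrated stress response genes 9 of 23 were more positive and none more negative. Hippo and Yap genes had 9 of 20 more positive and 2 more negative, and neural genes 8 of 21 and 3. Amino acid transporters had 8 of 27 more positive and 1 more negative, and integrin subunits 6 of 20 and 1. In the glycolysis list the balance was the other way, and 11 of 27 were more negative and 4 more positive. Of 15 genes of DNA methylation, 7 were more negative and 0 more positive, also 0 at an unadjusted p under 0.05. Over all genes, 9.10% were more positive and 10.0% more negative.

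The largest differences were in genes outside these lists or at low levels. Meis2, a homeobox cofactor, went from 0.577 and 0.243 CPM in control to 3.75 and 3.17 CPM in doxycycline in KO and from 4.65 and 5.85 to 2.79 and 2.88 CPM in WT, a difference of 3.95 ± 0.36 (adjusted p = 4.75e-09). Nog differed by 3.59 ± 0.62 and Vgf, a secreted neuropeptide precursor, by 2.84 ± 0.41. Npas4, Klhdc8a, a kelch protein, and Rapgef3, a cAMP-activated exchange factor, differed by 2.95 ± 0.82, 2.73 ± 0.46 and 2.67 ± 0.29. Ttn, titin, fell less in KO (-1.30) than in WT (-3.98), from a mean WT control level of 35.8 CPM against 5.13 and 4.13 in KO. For Kirrel2, an adhesion protein, no doxycycline-treated WT library had a read, so its difference of 4.52 has no fixed size. The Kirrel2 call was lost when any 1 of 6 of the 8 libraries was left out. For Npas4 it was lost without KO control replicate 1 (2.43, adjusted p = 0.0686) or WT control replicate 2 (2.34, adjusted p = 0.213). Pth1r, the receptor of parathyroid hormone and known in parietal endoderm, rose to 4.42 and 3.64 CPM in KO and 38.3 and 44.2 CPM in WT (difference -4.02 ± 0.35). Myl3, a myosin light chain, and Chrna3, an acetylcholine receptor subunit with 3 counts in the WT controls, differed by -4.24 ± 1.04 and -3.48 ± 0.71. Myl3 overlaps Pth1r on chromosome 9, so their reads may be shared, and its difference was not called without KO control replicate 2. Pou2f3, a POU factor, fell from 16.9 and 16.8 to 0.112 and 0.239 CPM in KO and from 4.70 and 5.60 to 0.953 and 0.959 CPM in WT (difference -4.13 ± 0.49). Slco4a1, an organic anion transporter, differed by -3.09 ± 0.29.

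In 114 genes the KO response was called up and the WT response down, and in 142 the reverse, and all of these had a called difference. Stra6l, a relative of a retinol receptor, fell in KO to 0.224 and 0.119 CPM and rose in WT to 5.65 and 5.20 CPM (difference -4.22 ± 0.59). Ndrg1, a stress and hypoxia gene, went from 35.6 and 36.96 CPM in control to 20.2 and 21.2 CPM in doxycycline in KO and from 19.6 and 18.6 to 72.7 and 76.7 CPM in WT (difference -2.78 ± 0.14, adjusted p = 1.01e-12). Rap1gap2, a Rap GTPase activator, changed by -0.32 in KO, a call lost without control replicate 2 or doxycycline replicate 1, and 2.998 in WT, while Rassf4, a Ras-association protein, changed by -1.43 and 0.92. The uncharacterised AF529169 changed by -1.45 and 1.45. Myc fell in KO (-0.38) and rose in WT (0.73), a difference of -1.11 ± 0.094 (adjusted p = 1.16e-09).

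Genes of the X chromosome had a higher median change than those of any autosome. Over 504 X-linked genes with at least 1 CPM, the median change was 0.23 in KO and 0.16 in WT, and 49.8% were called higher in KO, against 35.5% of 14210 genes at that level on all chromosomes. Autosome medians in KO ran from -0.10 to 0.10. Bcor, an X-linked co-repressor, went from 15.95 and 17.7 CPM in control to 215 and 223 CPM in doxycycline (3.70 ± 0.068), and Dusp9, an X-linked ERK phosphatase of stem cells, from 287 and 287 CPM in control to 886 and 817 CPM in doxycycline (1.57 ± 0.052). Xist, the noncoding RNA that silences an X chromosome, was low and fell, from 14.99 and 13.3 to 5.82 and 7.11 CPM (-1.13 ± 0.15), a call lost with effective-length offsets, and its overlap with the antisense Tsix makes both uncertain. Bcor and Dusp9 were chosen after their values were seen. The X median was above every autosome median in WT as well.

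**Figure D5:**
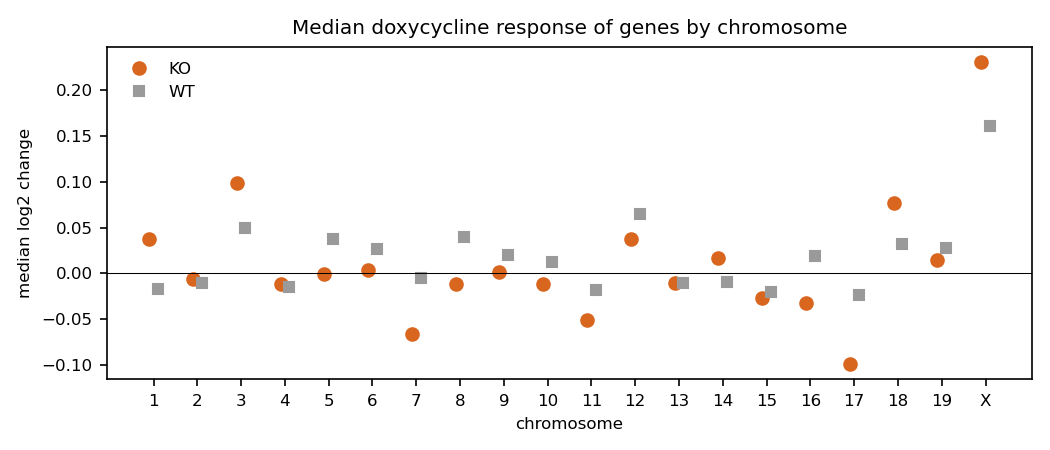
Median log2 change with doxycycline by chromosome, circles for KO and squares for WT, over genes with at least 1 CPM. Among the autosomes and X, the X chromosome stands highest in both lines, at 0.23 in KO and 0.16 in WT.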

How the data were processed

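For 12 libraries the authors deposited RSEM tables of expected counts and TPM (length-scaled transcript abundance) per gene, per the file headers. Per the submitters' processing notes, STAR 2.5.3a, RSEM 1.3.0, DESeq2 1.18.1 and the mm10 build were used. The annotation release and whether strand was used were not given in the sources used here. Retinoic acid libraries used another extraction kit, per the labels' protocols. Expected counts from copies that share reads (Rhox, Zscan4, pseudogenes) and from overlapping or antisense genes are uncertain.

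Expected counts were rounded, filtered (filterByExpr, minimum count 10) and fitted with edgeR 4.0.16 in R 4.3.3, with TMM factors, a term for each group and 6 residual degrees of freedom. The contrasts were doxycycline against control in KO, the same in WT, and their difference. SE is the absolute log2 change over the root of F, which can understate counting error in genes with few reads. Folds for genes with no read in a group use a floor of 3 counts per library, and intervals cover counting error only. Gene positions are from GENCODE M21, which matched 53274 of 53379 genes. In simulated counts, 60.5% of 43 genes changed 1.5-fold, 57.1% of 49 changed 2-fold and 93.9% of 49 changed 4-fold were recovered. Of the 17097 genes tested there, 16911 were unchanged, whereas 62.3% of genes were called in these data. Adjustment is stricter where few genes change, so these shares do not give the recovery in these data.

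The members, the 46 gene lists and the rules for naming genes were chosen with earlier results of these data known. Named genes were Phf6 and Pou5f1, the 12 largest called rises and falls by log2 reaching 5 CPM or more in a group and with libraries that do not overlap, the 8 largest rises and falls in TPM, the 8 largest called differences in each direction, the 6 largest opposite responses, and per list the largest changes and defining members. Other list members named beside these were chosen after their values were seen. Some genes that these rules name are not reported here. Alternatives covered scaling (including DESeq2 1.42.0), filtering, libraries fitted, length offsets, a replicate block and leaving out each library.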

Additional observations from a re-analysis of the deposited data

Results flagged for a closer look

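What marks the following genes is a response to doxycycline that differed between KO and WT cells in the test of the difference itself (edgeR, adjusted p under 0.05 over 17884 genes). Of 268 tested genes named here, Foxa2, Foxf1 and Gsc left aside, 147 met it, 65 more positive and 82 more negative in KO. The genes were named for their roles or for large changes, so this share says nothing about genes at large, where 19.1% met it. Values are log2 differences, KO response minus WT response. A negative value is a smaller rise or a deeper fall in KO, or a fall in KO where WT rose, as for Ndrg1. Their cause was not tested, and the genotype and a property of the sequenced cells cannot be told apart. Groups of 2 libraries are too small for a test of single outlying libraries.

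Among genes of pluripotency and the stem cell state, the response was more positive in KO by 0.59 for Spp1, 0.57 for Sox4, 0.52 for Trim71, 0.48 for Sox2, 0.47 for Tfe3, 0.39 for Esrrb and 0.36 for Lin28a. In the rest of the group, the response was more negative in KO by -2.11 for Tcl1, -1.80 for Pou5f1, -1.62 for Morc1, -1.41 for Tet2, -1.37 for Klf4 and -1.26 for Tdh. Next came -0.91 for L1td1, -0.72 for Tet1, -0.71 for Sall4, -0.60 for Dnmt3l, -0.56 for Zfp42 and -0.53 for Nanog. Then followed -0.53 for Utf1, -0.50 for Pou3f1, -0.41 for Etv5, -0.41 for Cldn6, -0.34 for Trim28, -0.33 for Tbx3 and -0.25 for Dnmt3b.

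For genes of the LIF, FGF, Nodal, BMP, Wnt and Hippo pathways, the response was more positive in KO by 3.59 for Nog, 1.66 for Ctgf, 1.48 for Cyr61, 1.47 for Egr1, 1.36 for Fgfr3, 1.06 for Spry4 and 0.75 for Wnt7b. Next came 0.68 for Id3, 0.48 for Dusp6, 0.43 for Sfrp1, 0.41 for Il6st, 0.34 for Amotl2, 0.32 for Fgfr1, 0.23 for Smad4 and 0.21 for Stat3. For other members of the group, the response was more negative in KO by -1.97 for Tdgf1, -1.33 for Fgfr2, -0.73 for Tead4, -0.55 for Smad3, -0.46 for Lgr4 and -0.41 for Lifr.

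Among trophectoderm and placental genes, the response was more positive in KO by 1.86 for Csf1 and 0.31 for Ets2. In the rest of the group, the response was more negative in KO by -2.26 for Sox15, -2.10 for Phlda2, -2.06 for Ascl2, -1.76 for Tfap2c, -1.75 for Cdx2, -1.32 for Nrk and -1.23 for Elf3. Next came -1.23 for Peg10, -1.08 for Gata2, -0.99 for Rhox9, -0.89 for Tfrc, -0.85 for Hand1, -0.61 for Fabp3 and -0.31 for Klf6.

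For imprinted genes, the response was more positive in KO by 0.69 for Tsix and 0.40 for Zdbf2. For other members of the group, the response was more negative in KO by -2.07 for H19, -1.54 for Igf2, -0.97 for Cdkn1c and -0.28 for Snrpn.

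Among keratin, junction and pump genes, the response was more positive in KO by 0.48 for Cldn4. In the rest of the group, the response was more negative in KO by -1.45 for Aqp3, -1.13 for Krt7, -0.80 for Krt19, -0.40 for Spint2, -0.34 for Spint1 and -0.23 for Atp1b1.

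For genes of the epithelial-mesenchymal switch, matrix, integrins and actin, the response was more positive in KO by 2.48 for Acta2, 1.94 for Cdh6, 1.38 for Cdh2, 1.21 for Tagln and 1.21 for Sparc. Next came 0.96 for Tgfb1, 0.93 for Tgfb2, 0.82 for Vim, 0.71 for Itgb1, 0.40 for Lama1 and 0.29 for Tpm1. For other members of the group, the response was more negative in KO by -4.24 for Myl3, -1.69 for Myl4 and -0.34 for Nid2.

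Among markers of other lineages and Hox, retinoid or germline genes, the response was more positive in KO by 2.84 for Vgf, 2.57 for Pax6, 0.99 for Thy1, 0.92 for Col1a1, 0.89 for Crabp1, 0.87 for Sox1, 0.68 for Nes and 0.67 for Dab2. In the rest of the group, the response was more negative in KO by -4.22 for Stra6l, -2.51 for Gata6, -1.33 for Pecam1, -1.02 for Islr2, -0.38 for Rpl10l and -0.35 for Rarg.

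For chromatin genes, the response was more positive in KO by 0.85 for Phf6. For other members of the group, the response was more negative in KO by -0.56 for Bard1 and -0.51 for Mbd2.

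Among genes of growth, the cell cycle, stress and metabolism, the response was more positive in KO by 2.48 for Ccnd2, 1.10 for Atf3, 1.08 for Cdkn2b and 1.03 for Slc7a3. Next came 0.79 for Slc7a11, 0.76 for Ddx58, 0.70 for Ccnd1, 0.62 for Asns and 0.32 for Psat1. In the rest of the group, the response was more negative in KO by -2.78 for Ndrg1, -1.11 for Myc, -0.90 for Pfkp, -0.82 for Hk2 and -0.82 for Slc2a1. Next came -0.73 for Mybl2, -0.66 for Slc2a3, -0.59 for Ubtf, -0.41 for Abca1, -0.40 for Top2a and -0.36 for Rrn3.

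For genes outside the lists, the response was more positive in KO by 4.52 for Kirrel2, 3.95 for Meis2, 2.95 for Npas4 and 2.73 for Klhdc8a. Next came 2.69 for Ttn, 2.67 for Rapgef3, 0.65 for Ldhb, 0.59 for Tuba1a and 0.31 for Bex3. For other members of the group, the response was more negative in KO by -4.13 for Pou2f3, -4.02 for Pth1r, -3.48 for Chrna3, -3.32 for Rap1gap2 and -3.09 for Slco4a1. Next came -2.90 for AF529169, -2.39 for Tdgf1-ps1, -2.34 for Rassf4, -0.94 for Zfp296, -0.40 for Dusp9 and -0.28 for Ptma.

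In 46 of these genes the call on the difference was lost when 1 of the 8 control and doxycycline libraries was left out. For 14 of them a single library did so. Without KO control replicate 1 the difference was -1.13 for Cdx2 (adjusted p = 0.379) and -1.12 for H19 (adjusted p = 0.36). It was 0.26 for Bex3 (adjusted p = 0.0501), -0.41 for Mbd2 (adjusted p = 0.0642) and -3.97 for Myl3 (adjusted p = 0.0872) without KO control replicate 2. Without KO doxycycline replicate 1 the difference was 0.47 for Ccnd1 (adjusted p = 0.0544). It was -0.92 for Tdh (adjusted p = 0.0705) without KO doxycycline replicate 2. Without WT control replicate 1 the difference was 0.76 for Col1a1 (adjusted p = 0.0513). It was 0.33 for Esrrb (adjusted p = 0.0519), -0.27 for Lifr (adjusted p = 0.123) and 0.83 for Tgfb1 (adjusted p = 0.0755) without WT doxycycline replicate 1. Without WT doxycycline replicate 2 the difference was -0.87 for Islr2 (adjusted p = 0.0715), -1.902 for Tdgf1-ps1 (adjusted p = 0.058) and -0.25 for Utf1 (adjusted p = 0.257). More than 1 library did so, each on its own, for the other 32. There were 2 such libraries for Acta2, Dnmt3b, Hand1, Klf6, Krt19, Krt7, Npas4, Sox1 and Tpm1. There were 3 such libraries for Fabp3, Spint2, Wnt7b and Zdbf2. There were 4 such libraries for Cldn6, Rpl10l and Slc7a11. There were 5 such libraries for Cdh6, Pax6, Snrpn, Tgfb2 and Tsix. There were 6 such libraries for Atp1b1, Ets2, Kirrel2, Pou3f1, Rhox9 and Stat3. There were 7 such libraries for Cdkn2b, Dab2, Smad4 and Zfp296. There were 8 such libraries for Rarg. With offsets for effective transcript length the call was lost for 35 of the 147 genes, Abca1, Amotl2, Atp1b1, Cdh6, Cdkn2b, Cldn6, Dusp6, Esrrb, Ets2, Fgfr1, Gata2, Hand1, Klf6, Krt19, Krt7, Lifr, Nid2, Pax6, Pou3f1, Rarg, Rhox9, Rpl10l, Snrpn, Spint1, Spint2, Stat3, Tbx3, Tcl1, Tgfb1, Tgfb2, Tpm1, Tsix, Wnt7b, Zdbf2 and Zfp296, and the difference of Dab2 and Smad4 changed sign.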

How the results depend on the processing

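The 5574 higher and 5573 lower calls in KO kept within 1.5 times of these counts under every alternative run except a test against a 2-fold change, which by its construction called 1487 and 1419. Leaving out 1 KO library gave 5010 to 5266 higher and 5007 to 5134 lower. The calls on the difference in response were fewer in some settings. More positive in KO were 1628, against 966 with effective-length offsets, 1082 with DESeq2 and 44 in the 2-fold test, and 1198 to 1639 when 1 library was left out. More negative were 1795, against 1017, 1047 and 69 in the same settings, and 1306 to 1851 when 1 library was left out. With the 8 control and doxycycline libraries fitted alone, 1485 were more positive and 1455 more negative. The cause was not tested. With effective-length offsets the difference of Smad4 turned from 0.23 to -0.0415 and that of Dab2 from 0.67 to -0.0596. In that setting 35 other genes named here lost their call on the difference, against 21 with DESeq2. The correlation of replicate 1 minus replicate 2 was 0.192 between KO control and KO doxycycline. It was 0.049 between WT control and WT doxycycline and -0.234 between both doxycycline groups. Such values cannot show whether libraries of the same replicate number shared a culture or batch. With the replicate block, 5527 genes were called higher and 5539 lower in KO, and 1581 and 1735 in the difference. Shares of motifs in gene sets, and their alternatives of window and gene set, were not run because too few genes had a promoter sequence. Medians near 0 changed sign. The endoderm list went from 0.22 to -0.31 over 16 members with at least 5 CPM and to -0.03 without doxycycline replicate 1. It went to -1.05 over 17 members with the 8 control and doxycycline libraries fitted alone, and to 0.44 over 15 with the 4 KO libraries. The mesoderm list went from 0.14 to -3.25 over 2 such members, and to -0.14 and -0.24 without control or doxycycline replicate 1. The neural list went from -0.11 to 0.499 without control replicate 1 and 0.25 without doxycycline replicate 2, and the retinoid list from 0.2014 to -0.19 without control replicate 1 and -0.12 with effective-length offsets. With these offsets 2 integrin subunits fell instead of 4, 3 NuRD genes instead of 5, and 2 mesoderm genes rose instead of 4. In the epithelial-mesenchymal list 3 genes were more positive in KO with them and with DESeq2, instead of 6. Over genes with at least 5 CPM, where fewer members are tested, 9 Hox genes, 7 integrin subunits, 6 genes of the epithelial-mesenchymal switch, 5 Wnt genes and 5 fibroblast markers were higher. Where edgeR called no member, an unadjusted p under 0.05 gave 2 of the 2-cell embryo genes higher, 1 Hox gene lower, and 0 ribosomal protein genes higher, 0 Rhox genes lower and 0 more negative differences in the epithelial-mesenchymal, fibroblast and stress response lists. DESeq2 also called 0 in each. Depth limits low genes, since 3 counts were 0.132 to 0.204 CPM across the 12 libraries.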
